A study of Mus musculus with 2 samples.

Results

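The nuclear-encoded subunits of oxidative phosphorylation were taken from the count table by symbol: rows beginning with Nduf followed by a, b, c, s or v and a number (complex I), *Sdha* to *Sdhd* (complex II), rows beginning with Uqcr (complex III), rows beginning with Cox4 to Cox8 (complex IV) and rows beginning with Atp5 (ATP synthase). The rule took 84 of 24421 rows and used no measured value. There were 37 rows in complex I, 4 in complex II, 8 in complex III, 18 in complex IV and 17 in ATP synthase. Transcripts were sequenced from primary rib chondrocytes (1 library) and from primary dermal fibroblasts (1 library), so no p-value was computed and no difference has a replicate check. The chondrocytes were released with collagenase from the rib cartilage of newborn mice and used within 2 passages, and the dermal fibroblasts were released with collagenase from the dorsal skin of newborn mice. The labels give no genotype or treatment for either group and do not say how many animals entered a preparation, so each library stands for 1 preparation of cells.

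Oxidative phosphorylation takes place in the inner mitochondrial membrane. Complexes I and II pass electrons from NADH and succinate to ubiquinone, complex III passes them to cytochrome *c* and complex IV to oxygen, and ATP synthase uses the proton gradient that complexes I, III and IV build. Most subunits are nuclear-encoded, several complex IV subunits and the ATP synthase c subunit come from more than 1 gene, and adult cartilage, which has no blood vessels, is known for relying mainly on glycolysis.

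The libraries held 18788599 counts (chondrocytes) and 17563724 counts (dermal fibroblasts). All 6 chondrocyte markers were over 2-fold higher in the chondrocyte library: *Col2a1*, the main cartilage collagen, had 1447098 counts against 0, and *Sox9*, which drives the chondrocyte program, had 5045 against 342. Of 6 dermal fibroblast markers, 5 were over 2-fold higher in the dermal fibroblast library (*Col1a1*, 322379 counts against 39143), and *Lum* had 2881 against 3191. Both libraries held skeletal muscle transcripts. The summed level of 25 skeletal muscle markers was 2655 CPM (counts per 1000000 counts of the library) in chondrocytes and 1955 CPM in dermal fibroblasts, single markers had 105 to 7784 and 40 to 7970 counts, and no marker was at 0. Since these are bulk samples, fewer cells of a type and less RNA per cell cannot be told apart.

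After scaling, the subunit genes were present at nearly equal total levels in the 2 cell types. Together they held 147059 counts (chondrocytes) and 151891 counts (dermal fibroblasts), which was 0.783% and 0.865% of each library. After scaling with trimmed mean of M values (TMM) factors, the fold of these sums, chondrocytes over dermal fibroblasts, was 0.994 (95% interval, 0.987 to 1.002). Other scalings moved this fold beyond its interval, by -0.14 (total counts) to 0.12 (*Actb*) on the log2 scale. All folds are given in this direction unless stated otherwise. Intervals are Clopper-Pearson intervals from the 2 counts and cover counting error only, because there is 1 library per group. The reads carry no molecular identifiers, so copies of 1 molecule can be counted more than once. The intervals may therefore be too narrow even for counting error. *Ndufs5*, *Cox7b2* and *Cox8c* were at 0 in both libraries, and the other 81 rows had at least 10 counts in 1 library. *Ndufs5* encodes an accessory complex I subunit, and its transcript has 1 further copy in the genome at 99.6% identity, and the part of that copy in the 0 was not tested. *Cox7b2* and *Cox8c* are known mainly from testis.

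**Figure D1:**
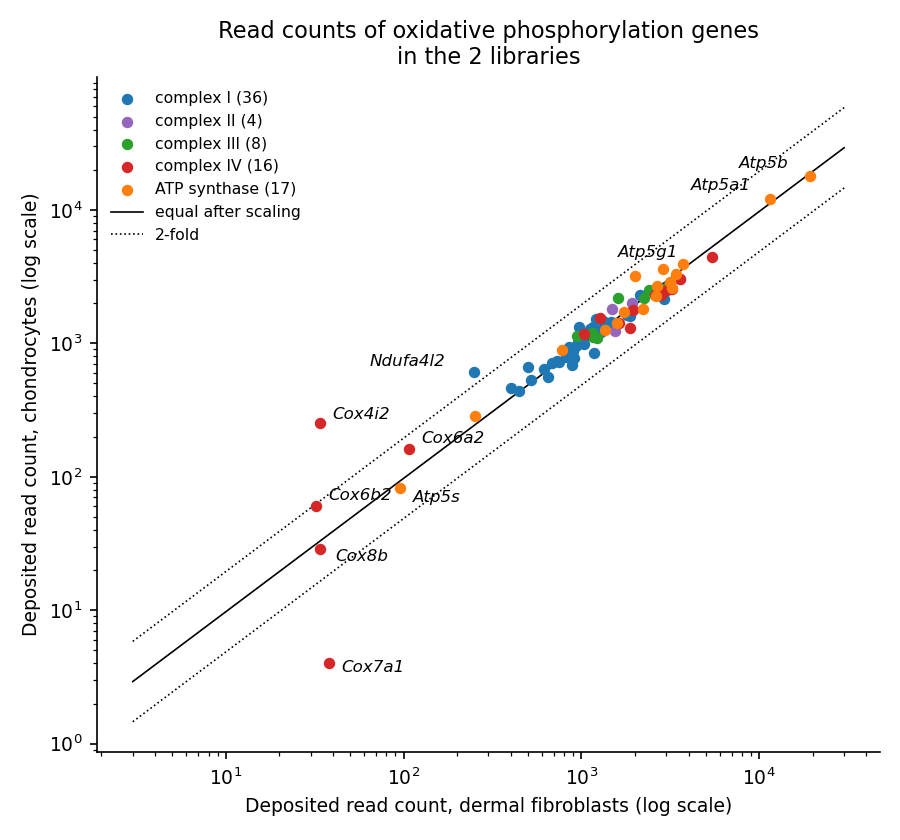
Read counts of each subunit gene in dermal fibroblasts (x axis, log scale) and chondrocytes (y axis, log scale), with a point for each gene, colored by complex. Most points lie along the line of equal scaled counts, while *Cox4i2* (251 against 34 counts) and *Ndufa4l2* (609 against 249) lie above it and *Cox7a1* (4 against 38) lies below it.

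Of the 81 genes, 2 were over 2-fold higher in chondrocytes (*Cox4i2* and *Ndufa4l2*) and 1 was over 2-fold higher in dermal fibroblasts (*Cox7a1*). Over all 14291 rows with at least 10 counts in 1 library, 11.8% and 16.2% passed in these directions. The median log2 fold of the 81 genes was 0.01, with 42 higher and 39 lower in chondrocytes, beside a median of -0.00 over all rows. Over 1.5-fold, there were 5 higher and 1 lower in chondrocytes, against 19.9% and 24.6% of rows. Folds within 1.25 in either direction were found for 67 genes, or 82.7%, against 36.1% of rows. Because the subunit genes were highly counted, they were also set beside the 6360 rows with at least 1000 counts over both libraries. Among the 71 subunit genes at this depth, 62 (87.3%) were within 1.25-fold, against 45.5% of these rows, and 70 (98.6%) were within 1.5-fold, against 67.1%. None of the 71 passed 2-fold, whereas 6.82% of these rows did in chondrocytes and 10.9% in dermal fibroblasts. The SD of the log2 folds was 0.23 for the subunit genes and 1.28 for the rows. The SD of the rows includes extreme log2 folds, from -9.31 to 18.9. The interquartile range, which such values hardly move, was 0.27 for the subunit genes and 0.74 for the rows. With the TMM factor taken as exact, counting error was small enough to separate most of these genes from equality. The interval included a fold of 1 for 26 of 71, and for 17.8% of the rows. Over the 6 scalings, however, 34 of the 81 genes changed direction.

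**Figure D2:**
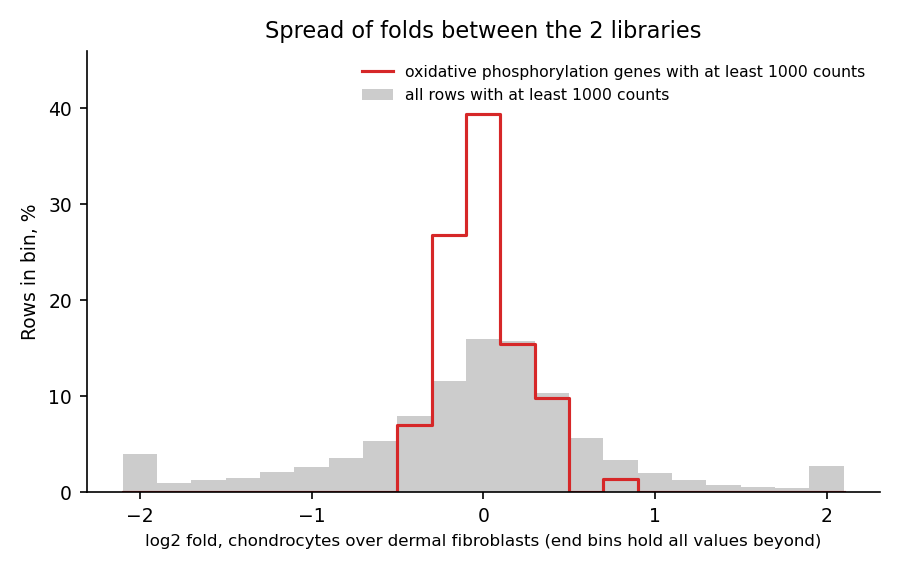
Share of genes (y axis, percent) by log2 fold, chondrocytes over dermal fibroblasts (x axis), for the subunit genes and for all rows with at least 1000 counts over both libraries. The subunit genes form a narrower peak (interquartile range 0.27) than the rows (0.74), and both have their center near 0. The end bins hold all folds beyond them.

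By complex, the summed folds with TMM scaling lay close to 1 except in complex IV. Complex I had 38210 counts in the chondrocyte library against 38525 in that of dermal fibroblasts, a fold of 1.02 (1.004 to 1.03). Complex II had 8073 and 8554 counts, a fold of 0.969 (0.940 to 0.999). Complex III had 14089 and 13805 counts, a fold of 1.05 (1.02 to 1.07). In these 3 complexes the sums of the cell types were nearly equal. ATP synthase had 61849 and 62356 counts, a fold of 1.02 (1.01 to 1.03), and complex IV had 24838 and 28651 counts, a fold of 0.890 (0.875 to 0.906). The share of complex IV among all subunit counts was 16.9% in chondrocytes and 18.9% in dermal fibroblasts, a comparison within each library that no scaling factor enters. The median log2 fold of a complex minus that of all subunit genes was 0.03 for complex I, -0.06 for complex II, 0.04 for complex III, -0.18 for complex IV and -0.01 for ATP synthase. Levels between complexes were compared per length, as RPKM, the counts per kilobase of transcript and per 1000000 counts of the library. RPKM rests on total counts and not on TMM, and a median of rows is not a sum. The RPKM pairs of the 2 cell types are therefore not to be read as the folds above. Over all rows taken by symbol, the median was highest for ATP synthase (153 RPKM in chondrocytes and 191 RPKM in dermal fibroblasts). That of complex I was lowest (57.9 and 63.5). Complex IV had 109.6 and 109.8 RPKM, a median that includes its 2 rows at 0 and its low-count alternative isoforms. Its place below ATP synthase in dermal fibroblasts depends on keeping these rows.

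**Figure D3:**
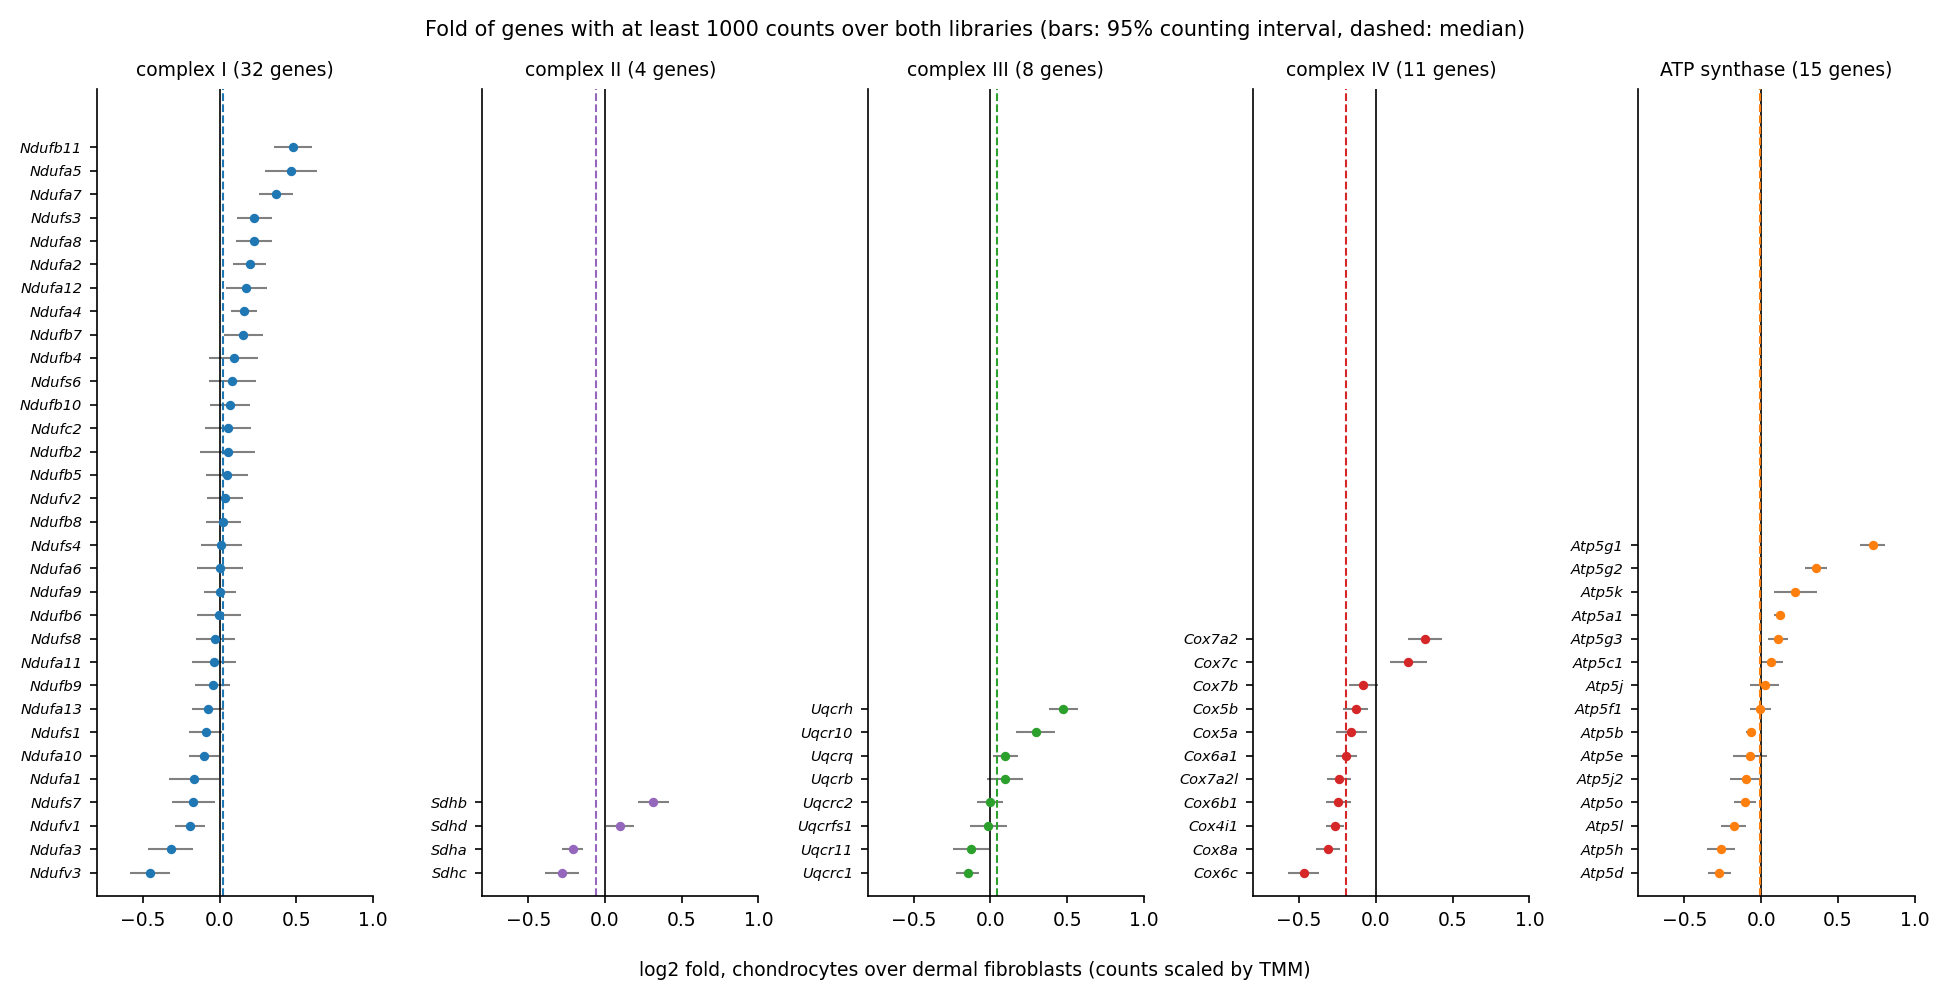
Log2 fold, chondrocytes over dermal fibroblasts (x axis), of subunit genes with at least 1000 counts over both libraries, by complex, with 95% counting intervals (bars) and the median of each complex (dashed). In complex IV, 9 of 11 genes lie below 0, while in complexes I to III and ATP synthase genes lie on both sides of 0.

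In complex I, 23 of 36 genes were higher and 13 lower in chondrocytes, with a median log2 fold of 0.03. The core subunits carry the flavin, the iron-sulfur clusters and the path to ubiquinone. *Ndufv1*, the core subunit that binds NADH, had 1590 counts in the chondrocyte library against 1869 in that of dermal fibroblasts, a fold of 0.874. The iron-sulfur subunits *Ndufs1* (1408 and 1540 counts), *Ndufs7* (780 and 902) and *Ndufs8* (986 and 1033) had folds of 0.939, 0.888 and 0.980. *Ndufv2*, with 1205 and 1206 counts, had a fold of 1.03, and *Ndufs3*, with 1321 and 1159 counts, had a fold of 1.17. *Ndufs3* has 1 further genome copy at 98.7% identity.

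The 28 accessory rows of complex I by symbol, *Ndufa4* among them, had a median log2 fold of 0.05, with 20 higher and 8 lower in chondrocytes. Accessory subunits surround the catalytic core and are needed for its assembly and stability. *Ndufb11* of the membrane arm had 1321 counts in the chondrocyte library against 974 in that of dermal fibroblasts, a fold of 1.39 (1.28 to 1.51). At the other end, *Ndufv3* had 840 and 1182 counts and was 1.37-fold higher in dermal fibroblasts (1.253 to 1.499). *Ndufb11* overlaps *Rbm10* on the opposite strand and has 1 further genome copy at 97.4% identity. The strand setting of the counting is not given in the sources used here, so reads of *Ndufb11* and *Rbm10* may not have been told apart. Of the 84 subunit genes, 27 overlap another annotated gene, among them *Cox6a2*, *Cox6c*, *Uqcrh* and *Atp5d* on the opposite strand and *Cox4i1* on the same strand. By the mean of both libraries per kilobase, *Ndufa4*, *Ndufa7* and *Ndufa2* were highest of the complex I rows: *Ndufa4* had 250.4 and 246 RPKM. *Ndufa4* carries a complex I symbol but its protein is now known as a complex IV subunit. Its fold was 1.12, with 2315 and 2128 counts, on the other side of 1 from most complex IV genes.

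*Ndufa4l2*, a relative of *Ndufa4* known as a hypoxia-induced gene, had the largest fold of the complex I rows. Chondrocytes had 609 counts and dermal fibroblasts 249, a fold of 2.51 (2.16 to 2.92), and the fold was between 2.29 and 2.73 under all 6 scalings. It made up 20.8% of *Ndufa4* plus *Ndufa4l2* counts in chondrocytes (19.4 to 22.3) and 10.5% in dermal fibroblasts (9.27 to 11.8), an odds ratio of 2.25 (1.91 to 2.65). The gene lies at chr10:127509274-127517154 (GRCm38) and overlaps *Shmt2* on the opposite strand.

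In complex II, the 4 subunits split 2 to 2. *Sdhb*, the iron-sulfur subunit, had 1796 counts in the chondrocyte library against 1482 in that of dermal fibroblasts, a fold of 1.24 (1.16 to 1.33), and *Sdhd*, a membrane anchor, had 2007 and 1927 counts, a fold of 1.07. The flavoprotein *Sdha* had 3030 and 3600 counts, a fold of 0.864, and *Sdhc*, the other membrane anchor, had 1240 and 1545 counts, a fold of 0.824 (0.764 to 0.889). Subunits of 1 complex, present in equal numbers in the protein, thus differed in opposite directions beyond counting error.

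In complex III, 4 genes were higher and 4 lower. *Uqcrh*, the hinge subunit at the cytochrome *c1* contact, had 2170 counts in the chondrocyte library against 1604 in that of dermal fibroblasts, a fold of 1.39 (1.30 to 1.48). The core subunit *Uqcrc1* had 2689 and 3061 counts, a fold of 0.902 (0.856 to 0.951), while its partner *Uqcrc2* had 2185 and 2250, a fold of 0.997. The Rieske iron-sulfur protein *Uqcrfs1* had 1119 and 1160 counts, a fold of 0.991. *Uqcrh* has 1 further genome copy at 95.3% identity. By the mean of both libraries per kilobase, the small subunit *Uqcrq* was highest of this complex, with 329 and 339 RPKM, followed by *Uqcrh* (211 and 167) and *Uqcr11* (130 and 156).

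With TMM scaling, complex IV was the complex whose genes were mostly lower in chondrocytes. Of its 16 genes, 5 were higher and 11 lower, with a median log2 fold of -0.17. This direction depends on the scaling for the other complexes: with total counts, 25 of 36 genes of complex I, 3 of 4 of complex II, 6 of 8 of complex III, 11 of 16 of complex IV and 13 of 17 of ATP synthase were lower, and with *Actb* these were 6, 2, 2, 10 and 4. Of the 11 genes with at least 1000 counts, 9 were lower, 8 of them with the whole interval below 1, against 48.6% and 39.9% of all rows at this depth, and the median was -0.19 beside 0.02 over those rows. *Cox4i1*, the ubiquitous subunit 4, had 4402 counts in the chondrocyte library against 5428 in that of dermal fibroblasts and was 1.20-fold higher in dermal fibroblasts. *Cox8a* had 2536 and 3231 counts, 1.24-fold higher in dermal fibroblasts, and *Cox6c* had 1309 and 1863 counts, 1.39-fold higher. *Cox6b1* (2293 and 2789 counts), *Cox6a1* (3052 and 3579), *Cox5a* (1420 and 1628) and *Cox5b* (2307 and 2593) had folds between 0.844 and 0.914. Opposite in direction, *Cox7a2* had 1554 and 1278 counts, a fold of 1.25 (1.16 to 1.35), and *Cox7c* had 1168 and 1036, a fold of 1.16. *Cox7c* has 3 further genome copies at up to 100% identity. Of the lower genes, *Cox5b* (2, up to 99.2%), *Cox6c* (2, up to 97.1%), *Cox7a2l* (1, 98.15%), *Cox6a1* (1, 95.96%) and *Cox8a* (1, 95.3%) also have further copies. *Cox4i1*, *Cox6b1*, *Cox5a* and *Cox7b* have none at 95% or more. Without genes with such copies, the complex IV median minus that of all subunit genes was -0.12, beside -0.18 with them. *Cox7a2l*, matched by the rule but known as a factor of respiratory supercomplexes, had 2507 and 3041 counts, a fold of 0.847. Per kilobase, *Cox4i1* (345 and 455 RPKM), *Cox6a1* (284 and 357) and *Cox8a* (248 and 338) were the highest of complex IV.

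Some alternative isoforms of complex IV subunits differed more between the cell types than any subunit with at least 1000 counts did. These isoforms had fewer counts, and passing 2-fold was more common where lower-count rows were included. Of rows with at least 10 counts in 1 library, 11.8% and 16.2% passed in the 2 directions. Among rows with at least 1000 counts over both libraries, 6.82% and 10.9% did. *Cox4i2* (chr2:152753916-152765039), the isoform of subunit 4 known from lung and from low oxygen, had 251 counts in the chondrocyte library against 34 in that of dermal fibroblasts, a fold of 7.58 (5.29 to 11.2). Its fold was between 6.90 and 8.25 under all 6 scalings. It made up 5.39% of *Cox4i1* plus *Cox4i2* counts in chondrocytes (4.76 to 6.08) and 0.622% in dermal fibroblasts (0.431 to 0.869), an odds ratio of 9.10 (6.33 to 13.5). On the length scale it had 18.4 and 2.66 RPKM, so *Cox4i1* remained the main isoform in both libraries.

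*Cox7a1*, *Cox6a2* and *Cox8b* are the isoforms known from heart and skeletal muscle. *Cox7a1* (chr7:30184171-30186030) had 4 counts in the chondrocyte library against 38 in that of dermal fibroblasts and was 9.25-fold higher in dermal fibroblasts (3.33 to 35.7). It made up 0.257% of *Cox7a1* plus *Cox7a2* counts in chondrocytes (0.0700 to 0.656) and 2.89% in dermal fibroblasts (2.05 to 3.94), an odds ratio of 11.6 for dermal fibroblasts over chondrocytes (4.14 to 44.6). *Cox6a2*, in contrast, had 162 and 107 counts, a fold of 1.56 (1.21 to 2.004), and made up 5.04% and 2.90% of *Cox6a1* plus *Cox6a2* counts. *Cox8b* had 29 and 34 counts, with a fold of 0.876 whose interval (0.515 to 1.48) included 1, and a difference was not detectable at this depth. The 3 muscle-type isoforms therefore did not share a direction. The 25 skeletal muscle markers had a median log2 fold of 0.71, and 11 were over 2-fold higher in chondrocytes and 0 in dermal fibroblasts. Their most abundant genes were *Actc1* (7288 counts in the chondrocyte library against 7970 in that of dermal fibroblasts), *Myh3* (7784 and 6497) and *Acta1* (6259 and 4705), and they ranged from *Casq1* (216 and 40, a fold of 5.55) to *Ckm* (120 and 176, a fold of 0.700). Of 3 cardiac and slow muscle markers, *Tnnt2* had 1137 and 1495 counts, a fold of 0.781 (0.723 to 0.844). *Tnni1* had 1068 and 795 counts, a fold of 1.38 (1.26 to 1.51), and *Myl2* had 2 and 0. *Cidea*, a brown fat marker, had 27 and 10 counts, and *Ucp1* had 2 and 0. The part of muscle or brown fat cells in the isoform counts was not tested. *Cox6b2*, known from testis, had 60 and 32 counts, a fold of 1.93 (1.23 to 3.06), which came to between 1.75 and 2.10 over the scalings.

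**Figure D4:**
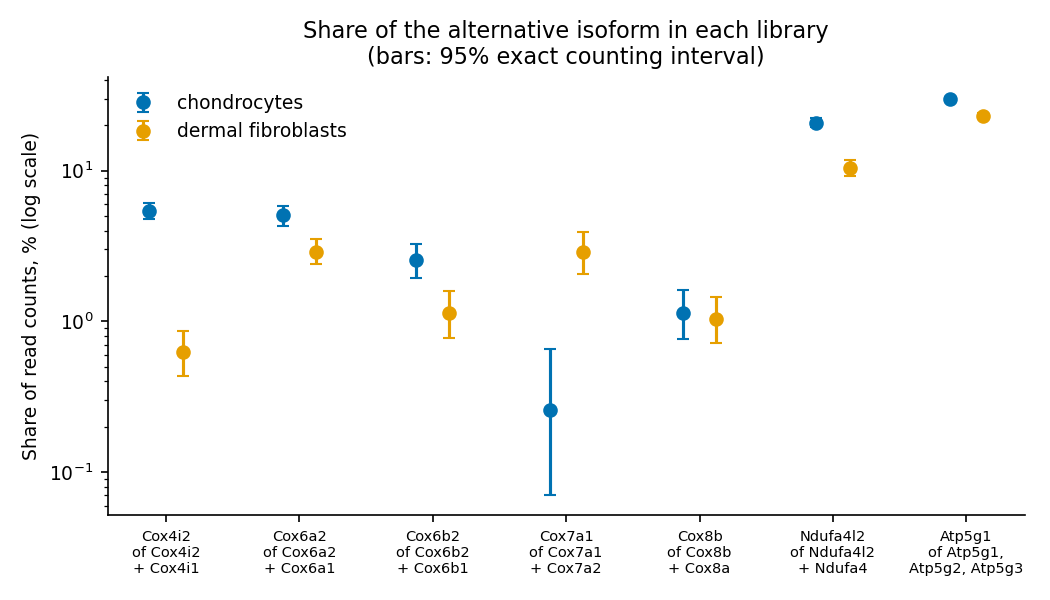
Share of each alternative isoform among the read counts of its isoform family (y axis, percent, log scale) in chondrocytes and dermal fibroblasts, with 95% Clopper-Pearson intervals. The intervals of the 2 cell types are apart for *Cox4i2* (5.39% and 0.622%), *Cox7a1* (0.257% and 2.89%), *Ndufa4l2*, *Cox6a2*, *Cox6b2* and *Atp5g1*, and overlap for *Cox8b* (1.13% and 1.04%).

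ATP synthase had 8 genes higher and 9 lower in chondrocytes, with a median log2 fold of -0.01. The catalytic pair was the most counted of all subunit genes. *Atp5b*, the beta subunit, had 17856 counts in the chondrocyte library against 19245 in that of dermal fibroblasts, a fold of 0.953, and *Atp5a1*, the alpha subunit, had 12104 and 11437, a fold of 1.09. Of the central stalk, *Atp5c1* (gamma) had 2707 and 2660 counts, a fold of 1.05, and *Atp5e* (epsilon) had 1249 and 1349, a fold of 0.951. *Atp5d*, the delta subunit, had 2590 and 3214 counts and was 1.21-fold higher in dermal fibroblasts. The 5 genes of the head and central stalk had a median log2 fold of -0.07, and the 7 of the peripheral stalk and membrane part had -0.10, with *Atp5h* (1795 and 2208 counts) at a fold of 0.835. *Atp5s* (83 and 96 counts) and *Atp5sl* (285 and 253), which match by symbol but are not part of the enzyme, had folds of 0.888 and 1.16.

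The c ring, the rotor that protons turn, had the highest median log2 fold of the parts of ATP synthase, 0.36. Its 3 genes encode the same mature protein and differ in their import sequences. *Atp5g1* (chr11:96072793-96075694) had 3220 counts in the chondrocyte library against 1998 in that of dermal fibroblasts, a fold of 1.66 (1.56 to 1.75). *Atp5g2* had 3605 and 2891 counts, a fold of 1.28 (1.22 to 1.35), and *Atp5g3* had 3902 and 3719, a fold of 1.08 (1.03 to 1.13). Of the c subunit counts, *Atp5g1* held 30.02% in chondrocytes and 23.2% in dermal fibroblasts and *Atp5g3* held 36.4% and 43.2%, while *Atp5g2* held 33.6% in both. *Atp5g1* has 2 and *Atp5g2* has 3 further genome copies at up to 99.6% and 100% identity, and how their reads were split cannot be told from the counts. *Atp5g3* has none.

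Promoter windows (RefSeq, GRCm38.p6, 250 bases before to 50 after the start) were matched for 69 of the 84 genes, with 75 windows. The motif GCGCNTGCG, a core of that of nuclear respiratory factor 1, a regulator known for respiratory chain genes, was in 34.7% of these windows on either strand, against 12.05% of the windows of rows with at least 10 counts in 1 library and 6.31% of all 32851 windows. CCGGAAG, a core of the ETS family to which GABP belongs, was in 21.3%, against 15.7% and 8.86%. The 24 genes with GCGCNTGCG came from all complexes, among them *Sdha*, *Sdhd*, *Uqcrc1*, *Cox6a1*, *Ndufa5* and *Atp5g3*. CCAAT was in 42.7% of windows against 37.1% and 37.4%, GGGCGG in 38.7% against 60.8% and 35.7%, CANNTG in 69.3% against 64.4% and 72.3%, and ACGTG in 28.0% against 24.6% and 19.6%. A match is a description of the letters and not a bound site. GCGCATGCG, in 10.7% of windows against 3.31% and 1.75%, is a case of GCGCNTGCG.

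The 250 bases before the transcript start in the RefSeq promoter table are given for 4 genes, isoform pairs whose folds differed. The stretches of *Cox7a2* and *Atp5g1* lie wholly or partly inside the annotated span of the gene, so other starts of these genes lie further upstream. They are *Atp5g1* (chr11:96075632-96075881, minus strand) and *Atp5g2* (chr15:102671048-102671297, minus strand), with GCGCNTGCG or CCGGAAG in capitals, and *Cox7a1* (chr7:30183921-30184170, plus strand) and *Cox7a2* (chr9:79759854-79760103, minus strand), with CANNTG, the E-box that muscle regulators among others bind, in capitals. Both strands were searched.
Atp5g1: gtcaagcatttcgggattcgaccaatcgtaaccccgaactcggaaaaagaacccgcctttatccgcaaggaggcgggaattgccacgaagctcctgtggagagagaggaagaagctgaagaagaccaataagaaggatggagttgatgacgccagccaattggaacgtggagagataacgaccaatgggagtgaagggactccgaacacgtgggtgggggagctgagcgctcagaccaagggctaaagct
Atp5g2: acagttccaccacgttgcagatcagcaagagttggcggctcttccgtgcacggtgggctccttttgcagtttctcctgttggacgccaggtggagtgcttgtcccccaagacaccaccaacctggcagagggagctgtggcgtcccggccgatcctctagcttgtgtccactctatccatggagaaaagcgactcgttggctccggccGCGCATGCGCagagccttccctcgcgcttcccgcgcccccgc
Cox7a1: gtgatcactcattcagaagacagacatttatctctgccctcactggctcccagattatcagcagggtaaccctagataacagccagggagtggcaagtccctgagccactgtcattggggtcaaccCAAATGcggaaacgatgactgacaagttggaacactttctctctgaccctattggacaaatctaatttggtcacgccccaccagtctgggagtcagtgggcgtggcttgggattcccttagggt
Cox7a2: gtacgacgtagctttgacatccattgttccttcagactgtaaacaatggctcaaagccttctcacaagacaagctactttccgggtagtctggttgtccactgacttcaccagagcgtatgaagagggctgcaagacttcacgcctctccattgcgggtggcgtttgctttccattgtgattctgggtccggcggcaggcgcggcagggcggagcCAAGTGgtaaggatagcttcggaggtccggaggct
The *Atp5g2* stretch holds 2 overlapping matches of GCGCNTGCG, 1 on each strand, and the *Atp5g1* stretch holds neither of its 2 motifs. The *Cox7a1* and *Cox7a2* stretches hold 1 CANNTG each.

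Few other mitochondrial genes passed 2-fold. Of all rows, 11.8% and 16.2% passed in the 2 directions, and of rows with at least 1000 counts over both libraries, 6.82% and 10.9%. Of 43 assembly factors with enough counts, which build the complexes, 1 was over 2-fold higher in chondrocytes (*Lyrm7*, which assists complex III, 72 and 33 counts, a fold of 2.24) and 0 in dermal fibroblasts, with a median log2 fold of 0.02 and *Coa7* (135 and 210 counts) at the low end with a fold of 0.660. *Sco2* and *Pet117* were at 0 in both libraries. Of 17 tricarboxylic acid cycle genes, 0 passed 2-fold in either direction and 16 were within 1.25-fold. The share within 1.25-fold was 36.1% over all rows and 45.5% over rows with at least 1000 counts. The genes of the cycle ranged from *Dlat* (973 and 1232 counts, 0.811) to *Suclg1* (1273 and 1043 counts, 1.25), with a median of 0.01. Of 18 genes chosen to stand for mitochondrial mass, among them import receptors, chaperones, inner membrane carriers and prohibitins, 0 passed, with a median of 0.16 and a range from *Hspa9* (15166 and 19245 counts, 0.809) to *Tomm70a* (2323 and 1626 counts, 1.47). The 13 mitochondrially encoded subunits had 0 rows in the count table under the symbols searched, so they were not analysed here.

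Cytochrome *c* and further subunits (8 genes) and biogenesis regulators (13 genes) were set beside all rows in the same way. The share over 2-fold higher in chondrocytes was 12.5% for the former and 15.4% for the latter, near the 11.8% of all rows. The share higher in dermal fibroblasts was 0% and 7.69%, against 16.2% of all rows. *Higd1a*, a hypoxia-induced gene of the inner membrane that associates with the respiratory chain, had 2234 counts in the chondrocyte library against 778 in that of dermal fibroblasts, a fold of 2.95 (2.72 to 3.20). It was the 1 of 8 genes of cytochrome *c* and further subunits to pass 2-fold, and the median log2 fold of the 8 was 0.13. *Cycs*, cytochrome *c* itself, had 2059 and 1595 counts, a fold of 1.33, and *Atpif1*, the inhibitor of ATP synthase, had 1153 and 1648 counts and was 1.39-fold higher in dermal fibroblasts. Of 13 regulators of mitochondrial biogenesis, 2 were over 2-fold higher in chondrocytes and 1 in dermal fibroblasts, with a median of 0.10, and with scaling by total counts 0 were over 2-fold higher in chondrocytes. These were *Tfb1m* (138 and 65 counts, 2.18), the coactivator *Ppargc1a* (51 and 24 counts, 2.18) and, in dermal fibroblasts, *Ppara* (19 and 55 counts). *Ppargc1b*, at the low end among regulators with at least 100 counts, had 84 and 115 counts, a fold of 0.750 (0.559 to 1.003). *Nrf1*, which encodes nuclear respiratory factor 1, had 600 and 560 counts, a fold of 1.10 (0.979 to 1.24). *Tfam*, which packages and transcribes mitochondrial DNA, had 687 and 478 counts, a fold of 1.48. *Ppargc1a*, *Ppara*, *Cycs*, *Nrf1* and *Tfam* were named after their values were seen.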

How the data were processed

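RNA-Seq had been performed by the authors on 1 library per cell type (stranded mRNA, single-end, 75 bp). The authors deposited unscaled counts, whole numbers for each gene symbol, and both count columns were matched to a sample (0 were not). The submitters' processing notes name CASAVA 1.8.2, TopHat2 2.0.13, Bowtie2 2.2.3, SAMtools 0.1.19 and mm10. The counting program, annotation and strand setting are not given in the sources used here. Of 24421 rows, 6703 were 0 in both libraries and 27 held a symbol turned into a date.

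Counts were scaled over the whole table with TMM factors (edgeR 4.0.16, R 4.3.3), and counts under 3 were set to 3. Folds, Clopper-Pearson intervals at 95% and shares were computed with Python 3.11.15, numpy 2.4.6, pandas 2.3.3 and scipy 1.17.1. The depth sets a fold's interval, from which replicate spread is absent. Calculations were tested on simulated counts. Alternatives were scaling by total counts, by DESeq2 1.42.0 size factors, by the upper quartile, without the 10 most abundant rows and by *Actb*, a floor of 10 counts, a fold over 1.5, filters of 100 and 1000 counts, and shares per kilobase. Leaving out genes with near-identical copies and lengths over all annotated exons were added after seeing the data. The members and gene lists were chosen with earlier results of these data known.

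Lengths are those of the annotated transcript with the longest coding sequence (GENCODE vM1, NCBIM37). Copies are further genome matches of that transcript at 95% identity or more over at least 50% of its length (minimap2 2.31), found for 23 of 84 genes. Positions are from RefSeq (GRCm38). Motifs (7 searched) were sought in 300-base windows.

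Genes named were those over 2-fold, in isoform families, at the ends of each complex or related list among genes with at least 100 counts, the 3 highest per kilobase of each complex, core catalytic subunits, the most abundant muscle markers, and matches that are not subunits. A result of complex I is not reported here. Other genes named stand beside these to show the spread of their complex.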

Additional observations from a re-analysis of the deposited data

How the results depend on the processing

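No paired analysis was possible because there was only 1 library per group. The scaling factor moved every fold alike, by -0.14 (total counts) to 0.12 (*Actb*) on the log2 scale relative to TMM. The median log2 fold of all subunit genes was -0.13 with total counts, and 34 of 81 genes changed direction over the 6 scalings, 19 in complex I, 9 in ATP synthase, 4 in complex III, 1 in complex II and 1 (*Cox7b*) in complex IV. Relative to all subunit genes, the median of complex IV was between -0.12 and -0.18 under the alternatives, while complex III went from 0.04 to -0.01 without genes with near-identical copies and ATP synthase from -0.01 to 0.03 by the ratio of summed counts. With a fold over 1.5, 5 subunit genes were higher in chondrocytes, with *Actb* scaling 3 passed 2-fold (*Cox6b2* joined), and among genes with at least 100 counts 0 were over 2-fold higher in dermal fibroblasts, since *Cox7a1* had 42 counts in all.

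Per kilobase of transcript, shares in chondrocytes and dermal fibroblasts were 11.9% and 5.66% for *Ndufa4l2*, 32.9% and 25.7% for *Atp5g1*, 33.2% and 39.98% for *Atp5g3* and 1.69% and 1.56% for *Cox8b*, and that of *Cox7a1* was 5.80% in dermal fibroblasts. Per kilobase of all annotated exons, those of *Ndufa4l2*, *Cox8b* and *Cox7a1* were the same, *Atp5g1* had 8.18% and 6.19%, *Atp5g2* 69.5% and 67.9%, *Atp5g3* 22.3% and 25.9%, and *Cox4i2* 4.68% in chondrocytes. A length divides the counts of a gene alike in both libraries. Given the counts, the order of the cell types could therefore not change for *Ndufa4l2*, *Atp5g1* and *Atp5g3*, and its being kept is no check.

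With total counts and with *Actb*, the median log2 fold was -0.0033 and 0.25 for cytochrome *c* and further subunits, -0.12 and 0.13 for the tricarboxylic acid cycle, 0.024 and 0.28 for mitochondrial mass and -0.039 and 0.22 for biogenesis regulators, of which 0 were over 2-fold higher in chondrocytes with total counts. With 1 library per cell type, a difference between cell types cannot be told apart from one between preparations.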
